A study of Bos taurus with 16 samples.

Results

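The early morula (EM) was compared with the compact morula (CM) in bovine embryos that developed in vivo, over all autosomal loci on which at least 1 of the 4 morulae had a read. By this rule 11225 of the 27393 loci of the deposited table were taken, and 4 of its 16 samples. Each sample was an individual oocyte or embryo, and its RNA was amplified in 2 rounds before a SOLiD library was made. The series covers the mature oocyte (MII), the 2-, 4-, 8- and 16-cell embryo (2C, 4C, 8C and 16C), EM, CM and the blastocyst (BL), each with 2 samples. No treatment was applied to any group, and the labels give neither the dam, the age nor the sex of an embryo. In this comparison EM stands for the morula before and CM for the morula after its cells have flattened onto each other, as the labels name them.

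Compaction is the step at which the loose blastomeres of the morula flatten against their neighbours. E-cadherin (CDH1), bound to the actomyosin cortex through catenins, holds the cells together, and polarity proteins mark the outer face of the outer cells. Outer cells then build tight junctions and keratin filaments and become trophectoderm, whereas inner cells keep pluripotency factors such as POU5F1. Hippo signalling, which keeps the coactivators YAP1 and WWTR1 out of the nucleus, couples the position of a cell to this choice. Much of this machinery is a matter of protein location and phosphorylation, which RNA does not show.

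Levels are normalised read counts, that is reads on a locus divided by the size factor of the sample. They were not divided by gene length, so they are comparable between embryos and not between genes. From the deposited values 1223707 and 1805933 reads were recovered for EM replicates 1 and 2 and 975526 and 1400784 for CM replicates 1 and 2. The smallest level counted as detected, 3 reads, stood at between 1.17 and 3.32 normalised reads, and between 6802 and 8385 of the autosomal loci reached 3 reads in an embryo. Of 9 embryo markers 8 had reads, and only CDX2, a trophectoderm factor, was at 0 in all 4 morulae. Markers of cumulus or granulosa cells (8 of 12), oviduct epithelium (6 of 8), blood and immune cells (6 of 10) and sperm (6 of 8) were mostly at 0 in all 4. The summed level of the cumulus list, 513 to 749 CPM (reads scaled to a common library size), was nearly all STAR, a steroidogenic cholesterol carrier. As each value is a whole embryo, fewer cells of a type and less RNA per cell cannot be told apart.

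No locus passed the test between CM and EM. Of 9670 loci tested by limma (7904 of them autosomal with reads in a morula), 0 were higher and 0 were lower in CM at an adjusted p of 0.05 (0% called in either direction), and the smallest adjusted p was 0.201. At an unadjusted p under 0.05 there were 485 loci (5.02%), of which 388 were autosomal with reads, 202 higher and 186 lower in CM. edgeR on the recovered reads called 0 as well, with 491 loci (5.08%) under the unadjusted threshold. DESeq2 gave an adjusted p for 859 loci and called 16 of them (1.86%), 14 higher and 2 lower, with 505 of 9670 (5.22%) at an unadjusted p under 0.05. By its default filter on mean reads DESeq2 adjusted over these 859 loci alone, whereas limma and edgeR adjusted over 9670. Here and below, its adjusted p-values are thus not on the same scale as theirs. The p-values measure the spread between single embryos, 2 to a stage, pooled over the 8 stages.

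**Figure D1:**
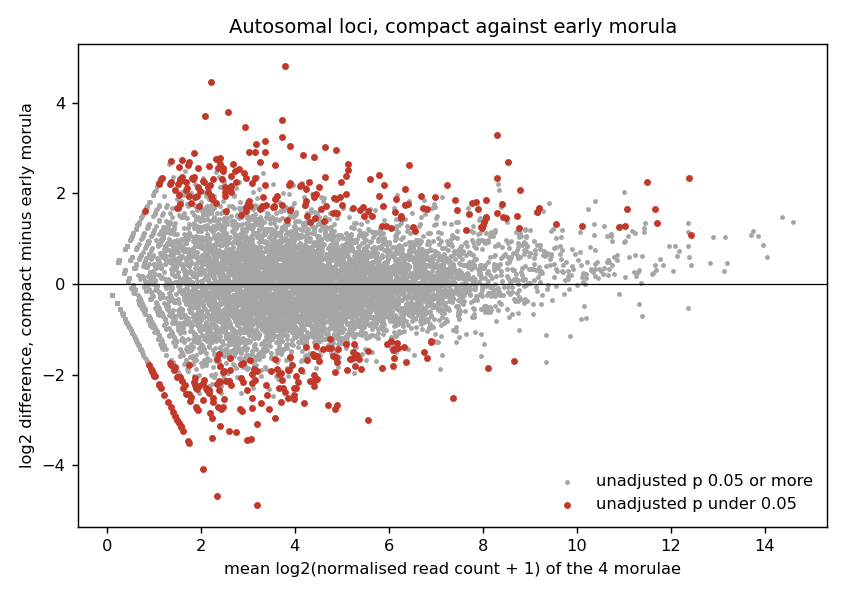
Log2 difference of CM minus EM (vertical axis) against the mean log2 level of the 4 morulae (horizontal axis) for the 7904 autosomal loci tested, 1 point a locus, with the 388 at an unadjusted p under 0.05 in red. The cloud is centred near 0 and narrows as the level increases, and at the highest levels more points lie above 0 than below it on this deposited scaling.

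How large a difference the embryos could have hidden is given by the intervals. The median log2 difference over the 7904 autosomal loci was 0.01, with quartiles of -0.54 and 0.57, and the median standard error was 0.84. The 95% interval reached, at the median, 1.78 log2 units to either side of the estimate, and 1.41 for the 1920 loci with a mean of at least 50 CPM. It lay within 2 log2 units of 0 (4-fold) for 2248 loci (28.4%), and for 1079 of these 1920 loci (56.2%). It lay within 1 log2 unit (2-fold) for 0 loci. At no locus did these 4 embryos bound the difference to under 2-fold. Both CM embryos lay above both EM embryos at 17.6% of the 9670 loci and below them at 17.9%, and at 1443 and 1493 of the autosomal loci.

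Among named autosomal loci whose embryos did not overlap between the stages and that had at least 20 reads in both embryos of the higher stage, the smallest unadjusted p for a higher level in CM belonged to PFKFB4, a kinase and phosphatase that sets the level of the glycolytic activator fructose 2,6-bisphosphate. Its level was 173 and 266 in EM and 959 and 858 in CM, a log2 difference of 2.07 (95% interval 0.97 to 3.18, limma adjusted p = 0.646), and 858 and 356 in 16C and 314 and 292 in BL. Both CM embryos were thus close to each other and well above both EM embryos. WDR6, a WD-repeat protein of tRNA methylation, stood at 47.9 and 101 in EM and 288 and 353 in CM (log2 difference 2.18, adjusted p = 0.695). CSRNP1, a nuclear protein of the cysteine and serine rich family, stood at 100.5 and 76.2 in EM and 390.1 and 264 in CM (log2 difference 1.86, adjusted p = 0.878). All 3 were among the 16 loci that DESeq2 called, as was LOC100138793 (DESeq2 adjusted p = 0.0369). CMTM8, ING4, DBX1, TRIM59, LOC100138793 and LOC523153 were also named by this rule, some with a smaller p than WDR6 or CSRNP1. Their log2 differences were 3.05, 3.62, 2.64, 1.90, 3.02 and 2.25, with limma adjusted p-values between 0.646 and 0.878. Leaving out 1 embryo gave 1.35 to 3.94 for DBX1, 2.53 to 4.71 for ING4, 2.17 to 3.88 for LOC100138793, 2.41 to 3.69 for CMTM8 (each by an EM embryo), 1.54 to 2.97 for LOC523153 and 1.35 to 2.45 for TRIM59 (each by a CM embryo). ING4, a chromatin reader of the ING family, was at 0.773 and 7.04 in EM and 64.3 and 31.9 in CM, so its EM level rested on few reads. DBX1, a homeobox factor, was at 33.2 and 4.69 in EM and 67.6 and 109.8 in CM and at 1.01 and 0 in BL.

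HBEGF, a membrane-bound ligand of the EGF receptor, completed the 10 by this rule, but its CM embryos were far apart. Its level was 72.7 and 137 in EM and 4124 and 233 in CM, against 2024 and 1692 in 16C and 288 and 372 in BL. The fitted log2 difference was 3.28 (95% interval 1.27 to 5.30, limma adjusted p = 0.878). CM replicate 1 carried most of this: the difference was 5.35 (limma adjusted p = 0.0194) without CM replicate 2 and 1.21 without CM replicate 1. DESeq2 gave 4.37 with an adjusted p of 0.000484. Other loci that DESeq2 called, and that were picked here after its calls were seen, were RALA, a small GTPase of exocytosis, at 265 and 127 in EM and 916 and 431 in CM, the phosphatase UBASH3B at 12.4 and 7.43 in EM and 193 and 33.8 in CM and GPCPD1, a glycerophosphodiesterase, at 3947 and 3647 in EM and 6852 and 9381 in CM. In each of these both CM embryos lay above both EM embryos, and for RALA and UBASH3B replicate 1 was the higher of the CM embryos.

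On the lower side the levels were small. ACOT12, an acetyl-CoA hydrolase, was at 20.1 and 12.5 in EM and 0 and 0 in CM. Its EM mean was at least 5.31-fold above the mean floor of 3 reads a CM library. This ratio leaves out the spread between embryos, and the locus did not pass (limma adjusted p = 0.201). Its fitted difference depends on the pseudocount. PNLDC1, the exonuclease that trims the 3' ends of piRNAs, was at 138 and 127 in EM and 19.9 and 12.2 in CM (log2 difference -3.00, limma adjusted p = 0.529). It stood at 15.2 and 22.6 in 16C and 14.2 and 38.03 in BL, so both EM embryos were above all 6 others of these stages, and DESeq2 called it with an adjusted p of 0.00719. SLC30A9, EPT1, RPE65, LOC505120, MMD, SLC28A2 and TARDBP followed with log2 differences between -3.09 and -2.14 and adjusted p = 0.878 each. Leaving out 1 embryo moved SLC30A9 between -4.74 and -1.44 and EPT1 between -3.40 and -1.65, the ends coming without CM replicates 1 and 2. The SLC28A2 locus was a minor one at 26.3 and 28.2 in EM and 3.32 and 6.57 in CM, and the main locus of that name, at 604 and 406 in EM and 132 and 745 in CM, overlapped between the stages. A second SLC30A9 locus was at 3.09 and 0.391 in EM and 9.97 and 12.2 in CM, so the loci of that name were ordered in opposite directions. TARDBP, the RNA-binding protein TDP-43, was at 32.5 and 34.8 in EM and 3.32 and 7.51 in CM, and RPE65, the retinoid isomerase of the eye, was at 23.2 and 23.1 in EM and 2.22 and 3.75 in CM.

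Loci without a gene name had differences of the same size. CUFF.20829.2 stood at 2669 and 443 in EM and 1.11 and 136 in CM (log2 difference -6.00, limma adjusted p = 0.646), with 2567 and 279.8 in 16C. Its CM embryos had 1 and 145 reads, and the difference was -2.99 without CM replicate 1 and -9.01 without CM replicate 2. CUFF.15876.1 was at 28.6 and 11.3 in EM and 0 and 0 in CM (limma adjusted p = 0.201), and CUFF.81754.1 at 16.2 and 13.3 in EM and 0 and 5.63 in CM. The EM mean of CUFF.15876.1 was at least 6.505-fold above the CM floor, again without the spread between embryos. On the other side were CUFF.44543.1 at 8.50 and 5.08 in EM and 172 and 62.9 in CM, CUFF.19067.1 at 9.27 and 0.782 in EM and 32.1 and 32.8 in CM and CUFF.39630.3 at 226 and 30.5 in EM and 601 and 516 in CM. For CUFF.39630.3 the EM embryos themselves were 226 and 30.5, and the adjusted p was 0.878.

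Loci present in 1 stage and at 0 in the other were few and shallow. With 0 reads in both EM and at least 3 in both CM there were 10 autosomal loci, and with 0 reads in both CM and at least 3 in both EM there were 63. The EM embryos had 1223707 and 1805933 reads and the CM embryos 975526 and 1400784. CM replicate 2, deeper than EM replicate 1, had 3 or more reads at 6802 autosomal loci, against 7348 in EM replicate 1. The part of depth in the 2 counts was not tested. With at least 20 reads in place of 3 the counts were 0 and 1, the single locus being ACOT12 with 26 and 32 reads in EM. The genes of these groups named here were picked after their values were seen. TMEM163, a zinc transporter, led the first group with 16 and 26 reads in CM. NID1, the basement membrane protein nidogen, led the second with 8 and 230 reads in EM, a 0 in both 16C embryos and 28.4 and 143 normalised reads in BL. STX11, a syntaxin, followed with 75 and 3 reads in EM. The transcription factor PRDM1 and the receptor NOTCH2 belonged to the same group with 10 and 14 and with 18 and 13 reads.

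Over all autosomal loci tested, the 4 embryos did not sort by stage. Across the 7904 autosomal loci, Pearson's r of the log2 levels was 0.903 between the EM embryos and 0.859 between the CM embryos. CM replicate 2 was at 0.888 and 0.885 to EM replicates 1 and 2, closer than to CM replicate 1, whereas CM replicate 1 was at 0.841 and 0.856 to EM. The loci that differed over 4-fold numbered 489 (6.19%) between the EM embryos, 954 (12.1%) between the CM embryos, 681 and 657 between CM replicate 2 and the EM embryos, and 1004 and 791 between CM replicate 1 and the EM embryos. Among the 1920 loci of at least 50 CPM the counts within a stage were 27 (1.41%) in EM and 75 (3.91%) in CM. To EM replicates 1 and 2 they were 46 and 75 for CM replicate 2 and 87 and 92 for CM replicate 1. In this class r was 0.850 between the CM embryos, and 0.883 and 0.836 from CM replicate 2 to EM replicates 1 and 2. There CM replicate 2 was closer to EM replicate 1 than to CM replicate 1, but not closer to EM replicate 2. CM replicate 1 was also the morula nearest to the blastocysts, at r = 0.795 and 0.740, against 0.743 and 0.680 for CM replicate 2. These coefficients describe loci, which are not independent, and the embryos differ in depth. CM replicate 1 was the shallowest of the 4. The sex-linked transcripts differed too: XIST, the RNA that coats the inactive X chromosome, was at 50.2 and 161 in EM and 0 and 69.4 in CM, and the Y-linked EIF2S3Y was at 0 and 0 in EM and 27.7 and 0 in CM. CM replicate 1 thus stood apart from the other 3 in both, and the part of sex in the other differences was not tested.

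**Figure D2:**
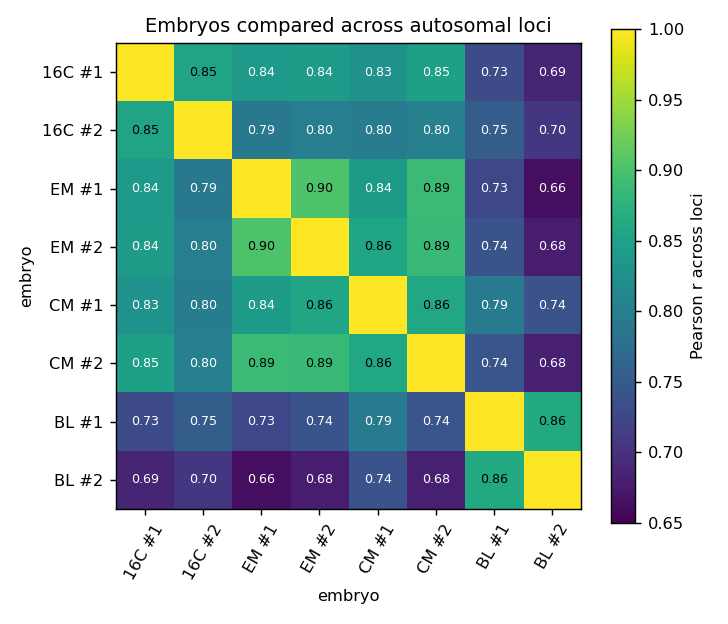
Pearson's r of log2 levels across the 7904 autosomal loci for every pair of 16C, EM, CM and BL embryos (both axes list the embryos, # marks the replicate, colour and number give r). The EM pair is the closest at 0.90, CM #2 is nearer to both EM embryos (0.89) than to CM #1 (0.86), and CM #1 has the highest r to BL of the 4 morulae.

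The genes behind the distance between the CM embryos were listed after their values were seen. Higher in CM replicate 1 were DIP2B (238 against 0), the cyclin-like CCNI (847 against 34.7), the endoplasmic reticulum protein CKAP4 (151 against 5.63), a locus of the fatty acid elongase ELOVL6 (2308 against 156, its main locus being at 7235 against 5386), fibronectin FN1 (262 against 25.3) and EZR (580 against 65.7). Higher in CM replicate 2 were the ubiquitin ligase RNF168 (25.5 in replicate 1 and 264 in replicate 2), MXI1, a MAX partner (13.3 and 99.4), and the cytokine receptor OSMR (62.1 and 418). TFRC, the transferrin receptor, was at 6055 and 3793 in EM and 2667 and 15169 in CM, 7103 and 3825 in 16C and 401 and 519.7 in BL. LOC538435 was at 8985 and 4488 in EM and 1824 and 10471 in CM and 51.7 and 36.4 in BL. For both of these CM replicate 1 was the lowest morula and lay between the other morulae and the blastocysts.

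Loci that separate the blastocyst from 16C were used as a ruler, chosen in a fit without the morulae. Of 9357 loci, 261 were higher in BL (2.79%) and 162 lower (1.73%), of which 223 and 123 were autosomal, whether or not a morula had reads on them. Relative to the 16C mean, the 223 higher loci had a median log2 level of 0.53 and 0.83 in EM, 1.23 and 0 in CM, and 3.66 and 3.71 in BL. CM replicate 1 was the highest of the 4 morulae at 102 of them (45.7%), EM replicate 1 at 55, EM replicate 2 at 43 and CM replicate 2 at 23. A locus at 0 in all 4 was counted for EM replicate 1, so its 55 is an upper limit. Both CM lay above both EM at 38 (17.0%) and below at 26 (11.7%), near or under the 17.6% and 17.9% of all loci. The 123 lower loci were at -0.75 and -1.01 in EM, -1.06 and -0.48 in CM, and -3.70 and -3.97 in BL. Relative to 16C, CM replicate 1 was the morula nearest to BL and CM replicate 2 the nearest to 16C for both sets of loci, with the EM embryos between them. That morulae fall between 16C and BL is largely set by the choice of loci, and their order is a description without a test. The 223 loci were low. Their median log2 level itself was 0 in 16C, 1.35 and 1.74 in EM and 2.11 and 1.52 in CM. By this median CM replicate 2 was above EM replicate 1. A single read was worth 1.11 normalised reads in CM replicate 1 and 0.391 in EM replicate 2, so the order rests on few reads a locus.

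**Figure D3:**
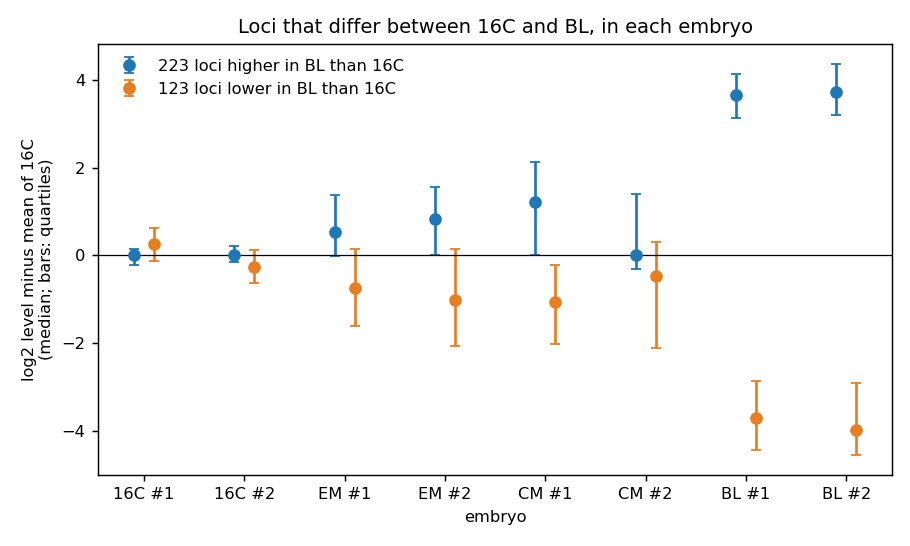
Median log2 level relative to the mean of the 16C embryos (vertical axis, bars are the quartiles over loci) in each 16C, EM, CM and BL embryo (horizontal axis), for 223 loci higher (blue) and 123 lower (orange) in BL than in 16C. Among the morulae CM #2 is the nearest to 16C and CM #1 the farthest from it.

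The gene lists are described by counts and medians on the deposited scaling, which depend on it. When reads were scaled to the library total instead, the median of all autosomal loci was -0.47, and the medians of the lists with at least 5 members lay between -0.73 and -0.03, except for 0.51 in DNA modifiers. A positive median is therefore a position relative to the other loci.

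Adherens junction and actomyosin genes had 30 autosomal members tested. None passed limma, 21 were fitted higher and 9 lower in CM, and the median difference was 0.29, beside 0.01 for all autosomal loci tested. RHOA, the GTPase that drives cortical contraction, was at 2313 and 1456 in EM and 6277 and 5283 in CM, a log2 difference of 1.65 (95% interval 0.41 to 2.89, limma adjusted p = 0.908), and DESeq2 called it with an adjusted p of 0.00887. Both CM embryos lay at more than 2-fold above both EM embryos and near the 4230.3 and 4892 of 16C, while BL was at 2208 and 2518. MYH9, the non-muscle myosin heavy chain, was at 2984 and 1037 in EM and 4456 and 4441 in CM (log2 difference 1.34, 95% interval -0.31 to 2.98). Its CM embryos agreed closely and its EM embryos did not. CDH1 itself was at 425 and 907 in EM and 401 and 236 in CM (log2 difference -1.01, 95% interval -2.31 to 0.29), so both CM embryos were below both EM embryos. The catenins were all fitted higher, except that CTNND1 turned to -0.11 with total-read scaling: CTNNB1 was at 56.4 and 40.3 in EM and 74.2 and 88.2 in CM, CTNNA1 at 15.5 and 30.9 in EM and 39.9 and 36.6 in CM and CTNND1 at 132 and 109 in EM and 185 and 142 in CM, with log2 differences between 0.43 and 0.78. The plaque protein JUP, which can take the place of beta-catenin, was at 69.6 and 56.7 in EM and 412 and 60.05 in CM, and only replicate 1 of CM reached the 16C level of 250.4 and 365. EZR, the ezrin that ties actin to the apical membrane, showed the same contrast at 89.7 and 68.4 in EM and 579.6 and 65.7 in CM, with 528 and 559.5 in 16C and 3064 and 1754 in BL. ACTB, cytoplasmic beta-actin, was at 1198 and 1603 in EM and 985 and 394 in CM, with both CM below both EM, and at 8383 and 4094 in BL. Within CM, 26 of the 30 members were higher in replicate 1 (median difference 0.65, beside 0.12 over all autosomal loci).

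Tight junction and polarity genes had 19 members tested, 13 fitted higher and 6 lower, with a median of 0.39. None passed, also at the unadjusted threshold. Occludin (OCLN) was at 671 and 814 in EM and 929.8 and 1161 in CM and reached 2257 and 2175 in BL. The claudin CLDN6 was at 61.1 and 137 in EM and 238 and 146 in CM, with both CM above both EM, and CLDN4 at 0 and 3.13 in EM and 22.2 and 0 in CM, with CM replicate 1 the highest of the 4. Of the polarity kinases PRKCZ was at 5.41 and 7.04 in EM and 21.1 and 15.9 in CM (log2 difference 1.43) and PRKCI at 24.7 and 33.2 in EM and 19.9 and 9.38 in CM (log2 difference -1.01), atypical protein kinases C whose embryos separated in opposite directions. The scaffold TJP1 was at 83.5 and 138 in EM and 68.7 and 66.6 in CM and the junction adhesion molecule F11R at 206 and 179 in EM and 270.4 and 163 in CM. The intervals of both differences covered 0 (-2.07 to 0.75 and -1.72 to 1.98).

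Desmosome, gap junction and keratin genes had 13 members tested, 6 fitted higher and 7 lower (median -0.02). GJC1, a connexin, had the largest positive difference of the listed genes, at 0.773 and 1.95 in EM and 28.8 and 20.6 in CM (log2 difference 3.47, 95% interval 0.62 to 6.32, limma adjusted p = 0.929, DESeq2 adjusted p = 0.0461), on 1, 5, 26 and 22 reads. Another connexin, GJB5, was at 841 and 595 in EM and 3635 and 1725 in CM, against 64.9 and 83.97 in BL. The keratin pair of simple epithelia behaved unlike the connexins. KRT8 was at 1.55 and 0 in EM and 31.03 and 0 in CM and KRT18 at 10.8 and 10.9 in EM and 55.4 and 0 in CM, against 543 and 543 and 401 and 396 in BL, so all 4 morulae were below BL, and CM replicate 1 was the highest of them for both. The 16C embryos were at 5.44 and 100.3 and 16.3 and 112. Desmoplakin (DSP) and the cadherin DSG2 also had their lowest level in CM replicate 2, at 0.938 and 18.8, against 14.4 and 62.1 in replicate 1. Over the list, CM replicate 1 was higher than replicate 2 at 10 of 13 members (median 1.07), beside 4320 of the 7904 autosomal loci (median 0.12).

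Trophectoderm factors had 13 members tested, 8 fitted higher and 5 lower (median 0.38), with 2 higher and 1 lower at the unadjusted threshold (4.91% of all autosomal loci were under it). GATA3 was at 0.773 and 0.391 in EM and 12.2 and 1.88 in CM (log2 difference 1.97, 95% interval -0.16 to 4.10) and GATA2 at 0.773 and 0.391 in EM and 31.03 and 0.938 in CM (log2 difference 2.33, 95% interval 0.10 to 4.55). Both factors were under 3 reads in EM and in CM replicate 2 and had 11 and 28 reads in CM replicate 1, while BL stood at 182 and 149 and 132 and 143. TFAP2C, a factor of both trophectoderm and its precursors, was at 251 and 199 in EM and 135 and 141 in CM, with both CM below both EM. KLF5 was at 26.3 and 51.2 in EM and 15.5 and 24.4 in CM. PTGS2, the inducible cyclooxygenase, was at 0 and 0 in EM and 3.32 and 0 in CM and at 286 and 233 in BL, so the blastocyst level was not yet seen in any morula. The interferon tau loci IFNT and IFNT2 were at 1.55 and 0 in EM and 6.65 and 2.81 in CM and 8.50 and 6.26 in EM and 0 and 1.88 in CM. They belong to a family of near-identical copies, and their reads are uncertain.

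**Figure D4:**
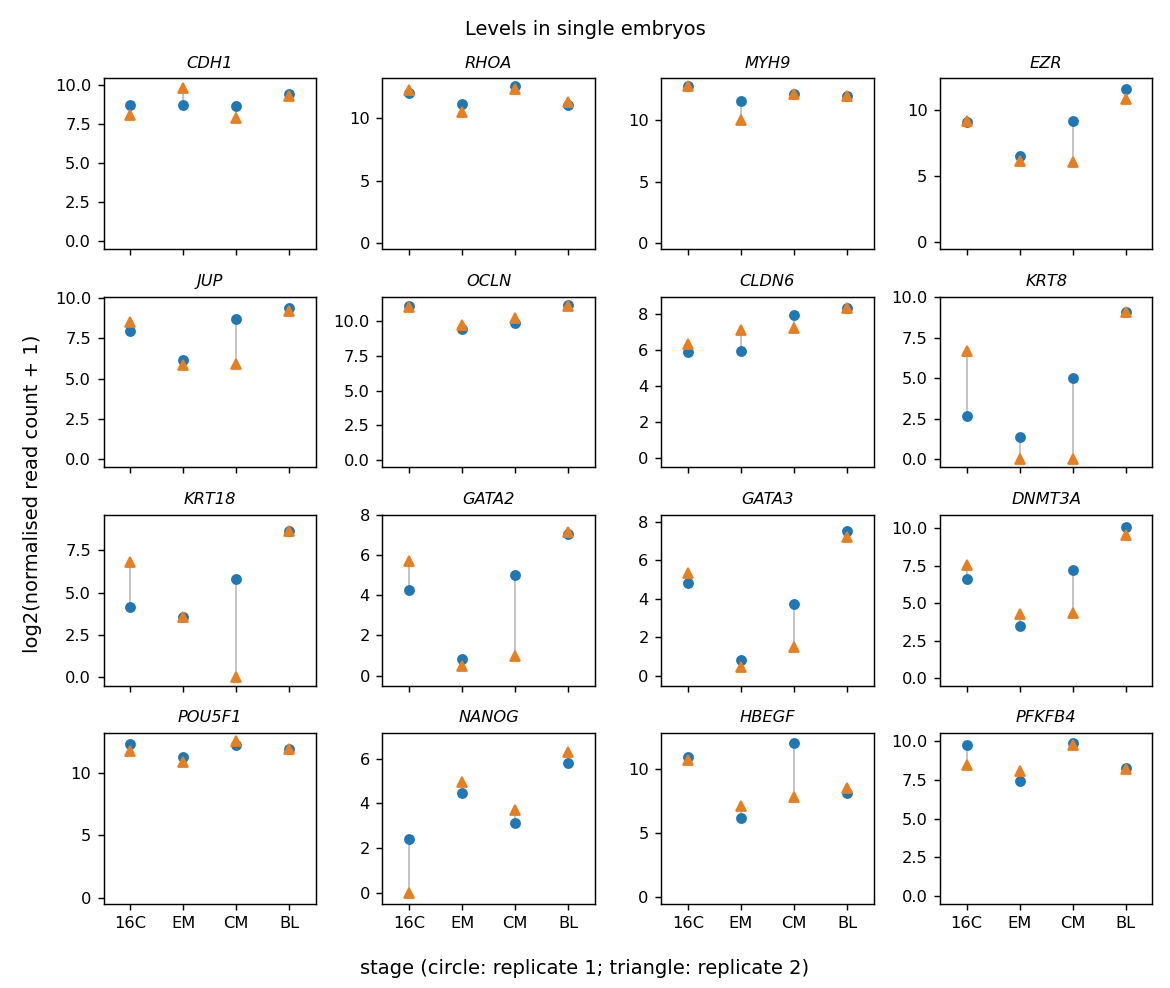
Log2 of the normalised read count plus 1 (vertical axes) of 16 genes in each 16C, EM, CM and BL embryo (horizontal axes, circle replicate 1, triangle replicate 2, grey line joins the replicates of a stage). The CM replicates coincide for RHOA, MYH9, POU5F1 and PFKFB4 and lie far apart for EZR, JUP, KRT8, KRT18, GATA2, DNMT3A and HBEGF, with replicate 1 the higher.

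Hippo pathway genes had 17 members tested, 9 fitted higher and 8 lower (median 0.13), with none under the unadjusted threshold. The coactivators YAP1, named LOC100336629 in the table, and WWTR1 were at 85.02 and 163 in EM and 83.1 and 77.9 in CM and 82.7 and 104 in EM and 53.2 and 69.4 in CM, both CM below both EM in each (log2 differences -0.54 and -0.60). Of their DNA-binding partners, TEAD4 was at 14.7 and 18.4 in EM and 43.2 and 19.7 in CM and TEAD3 at 5.41 and 5.08 in EM and 21.1 and 9.38 in CM. In each of these both CM lay above both EM, for TEAD4 by little in CM replicate 2. The kinase LATS2 was at 4.64 and 7.04 in EM and 13.3 and 2.81 in CM, and the scaffold NF2 at 13.9 and 5.47 in EM and 6.65 and 0 in CM. The target CCN2, named CTGF in the table, was at 60.3 and 73.9 in EM and 94.2 and 72.2 in CM and CCN1, named CYR61, at 12.4 and 25.8 in EM and 12.2 and 0.938 in CM. All intervals of these 8 genes covered 0.

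Pluripotency factors had 16 members tested, 7 fitted higher and 9 lower (median -0.06). POU5F1 (OCT4) was at 2363 and 1847 in EM and 4709 and 6029.8 in CM (log2 difference 1.35, 95% interval 0.14 to 2.57, limma adjusted p = 0.94). Both CM embryos lay above both EM embryos, 16C was at 5066 and 3402 and BL at 3698 and 3736. NANOG was at 20.9 and 30.5 in EM and 7.76 and 12.2 in CM, both CM below both EM, and at 55.8 and 79.2 in BL. KLF4, DPPA2 and DPPA4 were ordered like NANOG, with 148 and 215 in EM and 87.5 and 131 in CM, with 44.1 and 68.8 in EM and 22.2 and 36.6 in CM, and with 63.4 and 60.99 in EM and 13.3 and 58.2 in CM. SALL4 and PRDM14, at 4571 and 2186 in EM and 3136 and 5738 in CM and 1243 and 539 in EM and 1056 and 934 in CM, overlapped between the stages. KLF17 was at 512 and 388 in EM and 595 and 744 in CM and at 55.8 and 22.2 in BL. Unlike the junction lists, this list was lower in CM replicate 1 than in replicate 2 at 12 of 16 members, with a median of -0.59. Over the 7904 autosomal loci 3340 were lower in replicate 1, with a median of 0.12. For autosomal loci of at least 500 CPM, a class that holds POU5F1 and SALL4, that median was -0.43.

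Hypoblast factors and matrix genes had 12 members tested, 5 fitted higher and 7 lower (median -0.19). GATA6, the hypoblast transcription factor, was at 284 and 336 in EM and 272 and 304 in CM, and PDGFRA, a receptor of that lineage, at 51.01 and 70.8 in EM and 69.8 and 70.4 in CM, and both overlapped between the stages. SPARC was at 532 and 433 in EM and 551 and 279 in CM and NID2 at 2075 and 873 in EM and 718 and 1297 in CM. NID1, described above, was the member under the unadjusted threshold. The ion pumps and water channels that later fill the blastocoel had 7 members tested, 5 fitted higher and 2 lower (median 0.45). The beta subunit ATP1B3 of the sodium pump was at 73.4 and 51.2 in EM and 99.7 and 88.2 in CM. AQP3, a water and glycerol channel, was at 25.5 and 44.2 in EM and 44.3 and 54.4 in CM, and FXYD4, a pump regulator, at 0.773 and 1.95 in EM and 3.32 and 4.69 in CM against 79.1 and 49.1 in BL.

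Glucose uptake and glycolysis genes had 17 members tested, 11 fitted higher and 6 lower (median 0.43). Both CM lay above both EM at 4 (23.5%) and below at 0, beside 18.3% and 18.9% of all autosomal loci tested. Hexokinase HK1 was at 2.32 and 2.35 in EM and 11.1 and 4.69 in CM and enolase ENO1 at 2.32 and 3.91 in EM and 9.97 and 11.3 in CM, with 159 and 135 in BL. The transporters SLC2A1 and SLC2A3 were at 20.9 and 57.5 in EM and 84.2 and 40.3 in CM and 318 and 429.7 in EM and 346 and 285 in CM and overlapped between the stages. CM replicate 1 was the higher CM embryo at 14 of the 17, beside 4320 of all 7904 autosomal loci. PFKFB4, which is not on this list, is described above.

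Respiratory chain and ATP synthase genes had 74 members tested, 54 fitted higher and 20 lower, with a median of 0.31. Both CM lay above both EM at 29 (39.2%) and below at 6 (8.11%), beside 18.3% and 18.9% of all autosomal loci tested. None was under the unadjusted threshold. The proteolipid subunit ATP5G1 was at 35.6 and 62.6 in EM and 142 and 103 in CM, UQCR11 of complex III at 3.86 and 5.86 in EM and 17.7 and 10.3 in CM and NDUFB3 of complex I at 15.5 and 14.1 in EM and 36.6 and 38.5 in CM, whereas the alpha subunit ATP5A1 was at 360.2 and 416 in EM and 297 and 271 in CM and COX6B1 at 20.9 and 22.7 in EM and 19.9 and 7.51 in CM. The largest positive difference was 1.90 (NDUFA4L2), and the lowest member, ATP5S, was at 17.8 and 5.47 in EM and 0 and 6.57 in CM. Cytosolic ribosomal protein genes (76 tested, 62 of them higher in CM replicate 1 than in replicate 2) had a median of 0.11, mitochondrial ribosomal protein genes (67) of 0.17 and proteasome genes (31) of 0.06, with none under the unadjusted threshold in any. RPL28 was at 2265 and 1399 in EM and 5782 and 3072 in CM, RPS20 at 6552 and 2893 in EM and 5406 and 7987 in CM and the proteasome ATPase PSMC5 at 179 and 126 in EM and 397 and 183 in CM. Ribosomal protein genes have many processed copies, and their reads may be split between loci.

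**Figure D5:**
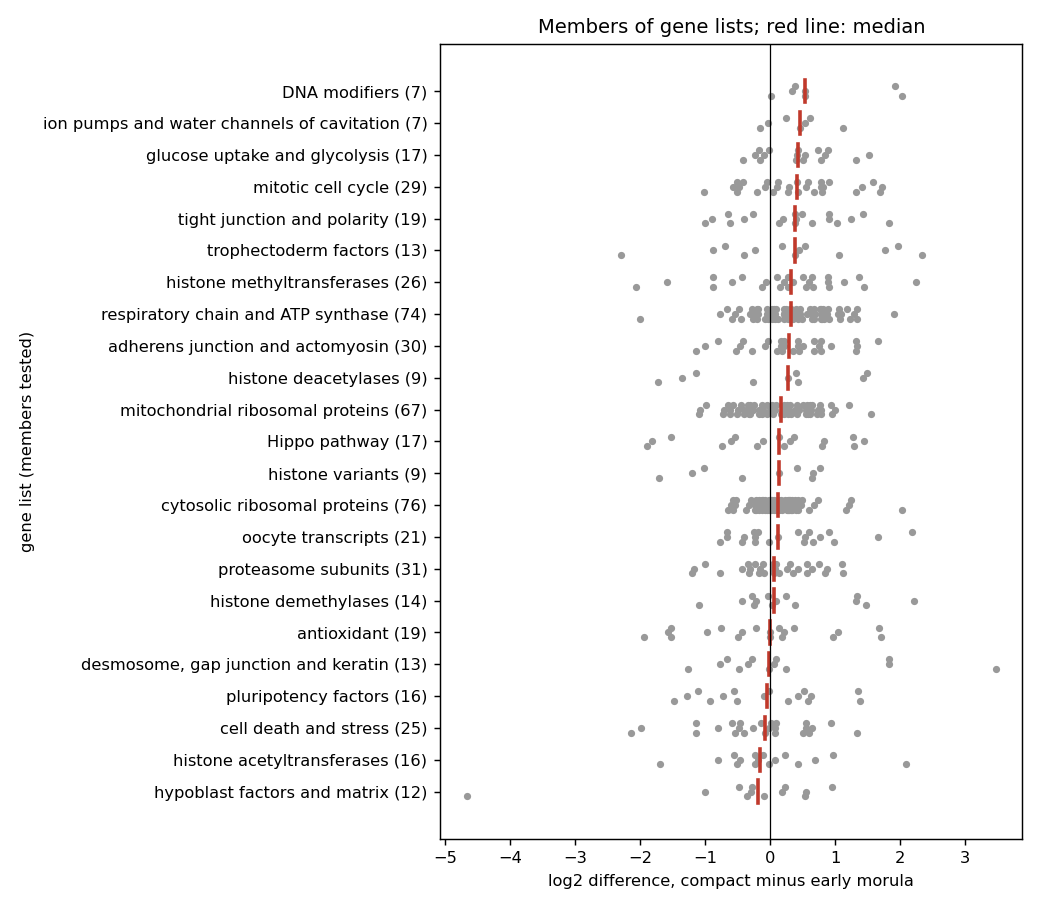
Log2 difference of CM minus EM (horizontal axis) for the autosomal members tested of each gene list with at least 5 of them (vertical axis, number in brackets), 1 grey point a member and a red line at the median. All medians lie between -0.19 and 0.54, and every list has members on both sides of 0 except DNA modifiers, whose 7 members all lie at or above 0 (with total-read scaling 2 of them turn negative, and the median of every other list is below 0).

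Cell cycle genes had 29 members tested, 20 fitted higher and 9 lower (median 0.41). Both CM lay above both EM at 10 (34.5%) and below at 3 (10.3%), beside the 18.3% and 18.9% of all autosomal loci. CDC20, the activator of the anaphase-promoting complex, was at 26.3 and 37.1 in EM and 166 and 66.6 in CM (log2 difference 1.72, 95% interval 0.57 to 2.87, limma adjusted p = 0.878) and at 419 and 344 in BL. The mitotic kinase AURKA was at 13.9 and 19.2 in EM and 48.8 and 52.5 in CM (log2 difference 1.57) and the phosphatase CDC25A at 40.96 and 34.02 in EM and 113 and 132 in CM. CDK1 and the cyclin CCNA2, at 65.7 and 89.1 in EM and 38.8 and 66.6 in CM and 496 and 303 in EM and 286 and 613 in CM, overlapped. Cell death and stress genes (25 tested) had a median of -0.09, with both CM above both EM at 2 (8%) and below at 9 (36%), beside the same 18.3% and 18.9%. APAF1, the scaffold of the apoptosome, was at 17.8 and 5.47 in EM and 2.22 and 0.938 in CM (log2 difference -2.14) and the inducible heat shock gene HSPA1A, which has near-identical copies, at 22.4 and 11.3 in EM and 2.22 and 4.69 in CM, with limma adjusted p = 0.919 and 0.967. Antioxidant genes (19 tested) had a median of 0.00. PRDX2, a peroxiredoxin, was at 44.1 and 77.02 in EM and 268 and 132 in CM (log2 difference 1.68) and GCLC, the catalytic subunit of glutathione synthesis, at 40.96 and 54.7 in EM and 18.8 and 12.2 in CM (log2 difference -1.58), with limma adjusted p = 0.919 for both.

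Histone variants and modifiers, the subject of the study, were read at the same step. Of 9 histone variants tested none was under the unadjusted threshold. H3F3A, an H3.3 gene with a paralog of the same protein, was at 117 and 167 in EM and 112 and 94.8 in CM, the centromeric CENPA at 145 and 67.6 in EM and 29.9 and 59.1 in CM and H2AFZ at 145 and 212 in EM and 164 and 225 in CM. The 26 histone methyltransferases (median 0.31) had 2 members higher and 2 lower at the unadjusted threshold, beside 4.91% of all autosomal loci: KMT2B, named LOC785776 in the table, at 3.09 and 10.6 in EM and 29.9 and 32.8 in CM, DOT1L, named LOC510442, at 11.6 and 12.5 in EM and 34.4 and 34.7 in CM, SETD3 at 28.6 and 44.2 in EM and 13.3 and 9.38 in CM and PRMT9, named PRMT10, at 13.9 and 13.7 in EM and 3.32 and 1.88 in CM. The H3K9 enzymes SETDB1 and EHMT1 were at 258 and 202 in EM and 675 and 512 in CM and 306 and 324 in EM and 611 and 563 in CM, both CM above both EM, and EZH2, the polycomb enzyme, at 92.7 and 55.5 in EM and 50.98 and 54.4 in CM. Of 14 demethylases (median 0.06) KDM2A was at 501 and 442 in EM and 957 and 1464 in CM (log2 difference 1.33, limma adjusted p = 0.94), KDM4A at 635 and 1093 in EM and 2425 and 1775 in CM and KDM1B at 0 and 0 in EM and 2.22 and 5.63 in CM. The 16 acetyltransferases had a median of -0.15. KAT5 was at 173 and 140.4 in EM and 977 and 451 in CM and KAT2B at 91.97 and 97.7 in EM and 22.2 and 36.6 in CM, the 2 ends of that list. The 9 deacetylases had a median of 0.28, with HDAC1 at 233 and 217 in EM and 269 and 342 in CM. Of the 7 DNA modifiers, the de novo methyltransferase DNMT3A was at 10.05 and 18.4 in EM and 146 and 19.7 in CM, with 96.9 and 188 in 16C and 1074 and 762 in BL, and its difference was 0.50 without CM replicate 1 and 3.33 without CM replicate 2. DNMT1 was at 4.64 and 4.69 in EM and 6.65 and 5.63 in CM, and TET1, named LOC513640 in the table, at 2790.1 and 2494 in EM and 2185 and 3260.3 in CM. In the study's own levels per transcript length (TPM), H3F3A was far above TET1 in compact morulae, the reverse of the order here. Whether this locus holds reads of TET1 alone was not tested. The smallest adjusted p in these lists was 0.915, that of KMT2B.

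Oocyte transcripts, such as those of the zona pellucida, had 21 members tested, 11 fitted higher and 10 lower (median 0.11), and most had under 10 normalised reads in each morula. H1FOO, the oocyte linker histone, was at 13.1 and 11.3 in EM and 34.4 and 13.1 in CM, and GDF9, an oocyte growth factor, at 0 and 0 in EM and 3.32 and 3.75 in CM on 3 and 4 reads.

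The loci with most reads had a lean of their own on the deposited scaling. Of the 216 autosomal loci with a mean of at least 500 CPM, both CM lay above both EM at 44.0% and below at 3.70%, and their median difference was 0.54. For the 1704 loci between 50 and 500 CPM these were 21.5%, 21.2% and 0.02. With total-read scaling the 216 loci had a median of -0.0045, against -0.52 for the 1704, and both CM lay above both EM at 20.8% of the 216 and below at 16.7%. ODC1, the ornithine decarboxylase of polyamine synthesis, was at 22135 and 10871 in EM and 31693 and 50789.7 in CM and the tubulin TUBA1C at 14729 and 10800.1 in EM and 20984 and 58712 in CM. RAN was at 21436 and 8882 in EM and 14171 and 30232 in CM, SURF1 at 13595 and 7779 in EM and 23969 and 18858 in CM and CAND2 at 12473 and 6804 in EM and 15536 and 27586 in CM. METTL23, C11H2orf63, MORF4L1, ZNF79 and TLCD1 completed the 10 most read autosomal loci, and all 10 had positive differences on the deposited scaling, between 0.30 and 1.48, each with an adjusted p of 1. With total-read scaling 8 were positive and 2 negative, TLCD1 at -0.25 and MORF4L1 at -0.08. Over all loci, autosomal or not, the 10 with most reads in an embryo took 17.0% and 11.99% of the reads in EM and 19.7% and 23.9% in CM. PFKFB4 (1.53 with total-read scaling in place of 2.07), RHOA, MYH9, POU5F1, GJB5 and KDM4A belong to this class of level, and the part of read concentration in their differences was not tested.

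The neighbouring steps give a scale for the count of 0. In the same limma fit EM against 16C had 2 loci higher and 8 lower (0.0207% and 0.0827%), and BL against CM had 282 higher and 145 lower (2.92% and 1.5%). By edgeR on the recovered reads EM against 16C had 0 and 0, and BL against CM 72 higher and 82 lower. These contrasts share samples with CM against EM and with each other. Among the lists, DNMT3A, EZR and KRT18 had BL levels several-fold above both CM embryos, whereas RHOA and GJB5 were below them.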

How the data were processed

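The authors trimmed the reads, mapped them and counted them on 27393 loci, and deposited for each of 16 samples a signal, the read count divided by a size factor. Per the labels, cutadapt, FastQC, TopHat, Cufflinks and HTSeq were used. Their versions, the genome build and the rule for multiply mapped reads are not given in the sources used here. In every sample 100% of the deposited non-zero signal values were whole multiples of the smallest (tolerance 0.01), so reads were recovered by division.

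Loci kept by filterByExpr of edgeR (9670) were fitted by limma 3.58.1 (R 4.3.3, trend, empirical Bayes) on log2(deposited value + 1) with a mean for each of 8 stages. A fold change on this scale understates the change of low loci. The contrasts were CM minus EM and, as neighbouring steps, EM minus 16C and BL minus CM, adjusted by Benjamini-Hochberg over all 9670 loci at 0.05. edgeR 4.0.16 (TMM, quasi-likelihood) and DESeq2 1.42.0 ran on the recovered reads. Other alternatives were TMM or total reads as scaling, pseudocounts of 0.5 and 5, no filter or at least 20 reads in both embryos of a stage, fewer stages in the fit, replicate number as a block, and each morula left out. Scripts were tested on simulated data. Summaries were made in Python 3.11.15.

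A locus was autosomal where its name was a symbol (10464) or synonym (761) of a gene on chromosomes 1 to 29 of assembly ARS-UCD2.0 in a RefSeq gene table. X, Y and mitochondrial loci (294) and loci without a chromosome there (2254, of which 924 had no name) were left out. Of the 11225 members 3321 were too low to be tested. Intervals are 95% intervals of the fit. As amplification was not followed by molecular tags, floors allow for counting error alone. Reads on overlapping genes could not be separated. Where several loci had the same name, values are those of the one with most reads unless stated.

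Loci were named by rule: up to 15 loci with the largest rise and fall past the threshold, filled to 10 a side by the smallest p among loci without overlap and with at least 20 reads in both embryos of the higher stage, 3 unnamed loci a side, the 2 members of each list and the 10 autosomal loci with most reads. Other members are named as examples of their list, and genes outside the lists are said to be picked after their values were seen. Some loci that the rule names are not reported here. The members, the lists and the rule were chosen with earlier results of these data known. The same replicate number in 2 stages marks no shared animal or batch in the labels.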

Additional observations from a re-analysis of the deposited data

How the results depend on the processing

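For CM against EM the count of 0 higher and 0 lower loci was also found by edgeR, with TMM factors, with pseudocounts of 0.5 and 5, with the stricter filter, with the 4 morulae alone and with 16C, EM, CM and BL alone. It became 14 higher and 2 lower by DESeq2 (of 859 loci with an adjusted p), 0 higher and 3 lower with total reads as scaling (ACOT12 and CUFF.15876.1 among them), and 0 higher and 3 lower without a filter on low values (USH1C, CUFF.26454.1 and CUFF.4809.1, of 18318 loci). Leaving out an embryo gave 0 to 2 higher and 0 to 2 lower, the calls coming without CM replicate 2 (HBEGF and EIF2S3Y higher, XIST and CUFF.20829.2 lower). The causes were not tested. Total-read scaling gave a median of -0.40 over all loci and -0.47 over the autosomal ones, and list medians relative to the latter kept their sign except for antioxidant genes, whose median was 0.00 before and -0.08 after. For DNA modifiers it went from 0.54 to 0.97. The median of the 216 loci over 500 CPM was -0.0045 in place of 0.54.

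With the replicate number as a block, CM against EM kept 0 and 0. The numbers did not pair the embryos: the deviations of EM and CM had a correlation of -0.09 across loci, and between -0.26 and 0.13 over all pairs of stages. Under the block EM against 16C had 1 higher and 4 lower in place of 2 and 8, and BL against CM 258 and 134. By edgeR EM against 16C had 0 and 0, and BL against CM 72 and 82. No named gene reversed past the threshold. Depth limits the low loci, where 1 read was worth between 0.391 and 1.11 normalised reads.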

Other observations

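RHOA, WDR6 and PFKFB4, 3 of the loci that DESeq2 called higher in CM, lie within 14 consecutive locus numbers of the table. Of the 9 loci tested in that stretch, 8 were fitted higher in CM, 6 had both CM embryos above both EM embryos and 3 were under the unadjusted threshold of 0.05. RHOA, WDR6 and PFKFB4, for which the stretch was picked, are these 3 and are also among the 6. Over all 9670 loci tested, both CM lay above both EM at 17.6%, and 5.02% were under that threshold. The stretch was noticed after the values were seen, and no test was made of it.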
